A study of Mus musculus with 24 samples.

Results

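A set of 9 genes that carry, make, bind or answer to retinoids was followed through 2 RNA-seq experiments on mouse liver ductal cells (DCs) and mesenchyme. They are Rbp4, Stra6, Rdh10, Aldh1a1, Aldh1a2, Aldh1a3, Crabp1, Crabp2 and Rarb, and all 9 were found by symbol among the 49568 genes of each table. Both experiments used the Smart-seq2 protocol on sorted or cultured cells. The homeostasis experiment held 12 samples, with 4 fractions sorted from undamaged livers of 3 littermate mice (A and E male, F female) aged 12 weeks. These mice were heterozygous for B6.129S4-Pdgfratm11(EGFP)Sor/J on a C57BL/6 background, in all 4 fractions alike, and the nuclear GFP of this reporter stood in for PDGFRa in the sort. The fractions were DCs (EpCAM+) and the PDGFRa+SCA1+, PDGFRa+SCA1- and PDGFRa-SCA1+ cells, each sorted against CD11b, CD45 and CD31.

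The transwell experiment held 12 samples in 6 groups of 2 replicates, from wild type C57BL/6 mice aged 8 to 12 weeks. The first 3 groups were DCs on the day of sorting (day 0), organoids grown from DCs for 15 days in the growth-factor-rich expansion medium (EM organoid), and organoids grown for 15 days across a porous membrane from mesenchyme without those growth factors (co-cultured organoid). The other 3 groups were the mesenchymal partner cells, either fresh at day 0 or cultured for 15 days, alone or across from organoids. This partner, SCA1+Msc, was sorted on SCA1 and against CD11b, CD45 and CD31 without the use of PDGFRa. It was expanded on the plate bottom in a WNT-containing medium before the DCs were added in Matrigel, a stretch of culture that the DCs did not have. The EM organoid and the co-cultured organoid therefore differed in medium as well as in partner cells, and these cannot be told apart. By the study's methods the mesenchyme came from 2 littermates and the DCs from 2 others, and the sources used here do not say whether a replicate number marks the same animal in different groups.

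Vitamin A travels in blood as retinol on RBP4, made mainly by hepatocytes, and enters many cells through the receptor STRA6. In the liver, stellate cells store retinol as retinyl esters made by LRAT. Inside a cell RDH10 oxidises retinol to retinal, the 3 ALDH1A enzymes oxidise retinal to retinoic acid, CRABP1 and CRABP2 bind retinoic acid, and retinoic acid receptors such as RARβ (Rarb) switch genes on when it binds them. CYP26 enzymes break retinoic acid down, and DHRS3 returns retinal to retinol.

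One sequence is shown because Rarb is read here as the response gene of the set. RefSeq promoter windows on GRCm38.p6 (250 bases before to 50 after a start site) were at hand for 6 of the 9 genes, in 11 windows. Receptors of the RAR and RXR families bind direct repeats of a 6-base half-site, and repeats of AGGTCA or AGTTCA, or of the forms GGGTCA or GGTTCA, in any combination with 5 bases between them were searched on both strands. Of all 32851 windows 32 held such a repeat (0.0974%), and of the 11 windows only that of Rarb did. The 250 bases before the Rarb start site, at chr14:16575477-16575726 on the minus strand, are given 5′ to 3′ with the repeat in capitals; it lies 53 to 37 bases before the start, with the half-sites GGTTCA and AGTTCA.
Rarb upstream window: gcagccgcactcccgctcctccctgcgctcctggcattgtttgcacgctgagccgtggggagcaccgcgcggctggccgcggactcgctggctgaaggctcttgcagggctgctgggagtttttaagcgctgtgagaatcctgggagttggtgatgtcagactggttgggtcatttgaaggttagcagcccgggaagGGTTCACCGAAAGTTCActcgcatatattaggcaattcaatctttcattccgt
The match describes the letters of the window and was not a measurement of binding.

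In the GRCm38 annotation Rbp4 lies at chr19:38116629-38125281, Stra6 at chr9:58063788-58153996 and Rdh10 at chr1:16105774-16133734. The dehydrogenase genes lie at chr19:20492715-20643465 (Aldh1a1), chr9:71215789-71296243 (Aldh1a2) and chr7:66390890-66427517 (Aldh1a3). Crabp1 lies at chr9:54764748-54773110, Crabp2 at chr3:87948666-87953376 and Rarb at chr14:16430839-16819156. No exon of the first 8 genes overlapped another gene, while 38.4% of the exon length of Rarb overlapped Top2b and an antisense transcript on the other strand. The strand setting of the counting is not given in the sources used here, so reads from the shared bases cannot be assigned. Aldh1a7, a near copy of Aldh1a1, lies beside it, and reads matching both may have been lost.

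Libraries held 17.55 to 26.05 M reads by the scale of their lowest values. The defining markers were above 0 and high where the labels place them, in DCs (5 ductal markers, summed to 54236 to 74150) and in both PDGFRa+ fractions (5 mesenchymal markers, summed to 23498 to 46163 in PDGFRa+SCA1- and 25441 to 28105 in PDGFRa+SCA1+ cells). In PDGFRa-SCA1+ cells the same mesenchymal sum was only 236 to 450. Their 5 endothelial markers summed to 1768 to 2102, against at most 16.2 in the other fractions, and none of the 5 was at 0, although CD31, the product of Pecam1, was sorted against. One PDGFRa-SCA1+ library, that of mouse E, stood apart with a ductal sum of 3706 against 79.2 and 314 in the other 2. Values of the homeostasis experiment are those deposited under the name TPM. TPM is a level per transcript length, scaled to the same total in each sample. The deposited values depart from it by a factor of 0.7216 to 1.386. Those of the transwell experiment are TPM scaled from RPKM. Both scales are per length. Folds are differences of log2(value + 1), tested with limma across all genes.

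The plot of the 9 genes by fraction shows each mouse.

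**Figure D1:**
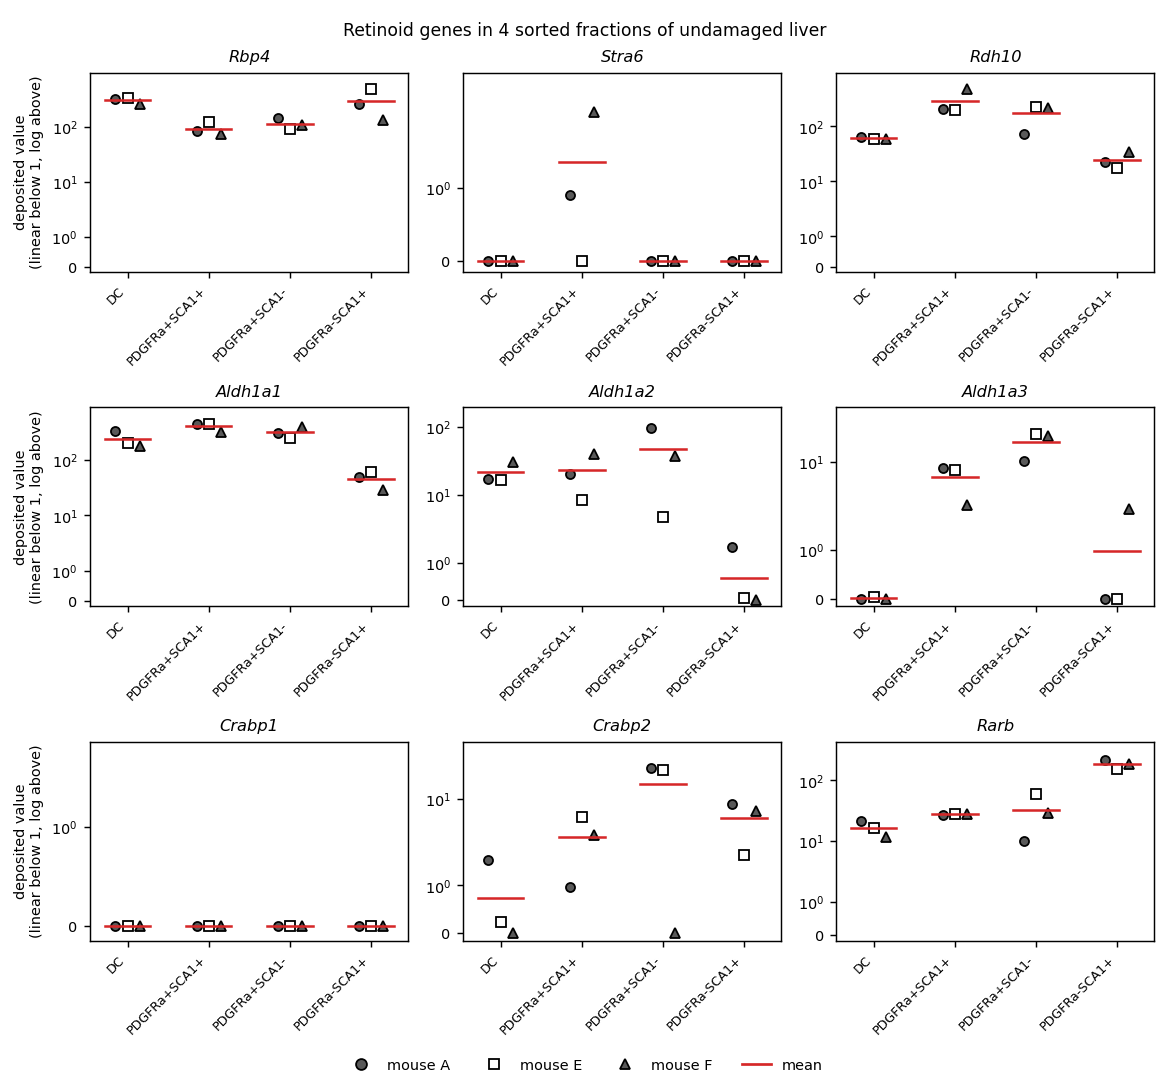
Levels of the 9 retinoid genes (panels) in 4 sorted liver fractions of 3 mice. The y axis is the deposited value, linear below 1 and logarithmic above, points are single samples with the marker giving the mouse, and red lines are means. Rarb is highest in the 3 PDGFRa-SCA1+ samples, where Aldh1a1 and Aldh1a2 are lowest, and Crabp1 is at 0 throughout.

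Rbp4, the plasma carrier, was highest in DCs and PDGFRa-SCA1+ cells. Its values in mice A, E and F were 327, 340 and 269 in DCs, 268, 495 and 134 in PDGFRa-SCA1+, 147, 92.8 and 110 in PDGFRa+SCA1- and 83.8, 122 and 76.4 in PDGFRa+SCA1+ cells. The DC samples lay above all 6 PDGFRa+ samples, while PDGFRa-SCA1+ cells overlapped DCs. The summed level of 7 hepatocyte markers was also higher in those same fractions, at 4920 to 6313 in DCs and 2417 to 6723 in PDGFRa-SCA1+ against 872 to 1577 in PDGFRa+SCA1- and 1023 to 2622 in PDGFRa+SCA1+ cells, and its part in the Rbp4 values was not tested. Between bulk samples, fewer cells of a type and less RNA per cell cannot be told apart.
Stra6, the retinol receptor, was near the limit of detection. It was listed at 0 in 10 of the 12 samples and reached 0.904 (33 reads) and 3.80 (140 reads) in the PDGFRa+SCA1+ cells of mice A and F, so it was not tested in the fractions.

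Rdh10, which makes retinal, was highest in the PDGFRa+ cells. It measured 211, 199 and 472 in PDGFRa+SCA1+, 71.8, 228 and 219 in PDGFRa+SCA1-, 65.2, 60.1 and 57.7 in DCs, and 22.5, 17.6 and 34.5 in PDGFRa-SCA1+ cells. Only the 2 PDGFRa+ fractions overlapped each other.
Aldh1a1 and Aldh1a2 were lowest in PDGFRa-SCA1+ cells. Aldh1a1 measured 333, 205 and 180 in DCs, 446, 446 and 314 in PDGFRa+SCA1+, 309, 252 and 391 in PDGFRa+SCA1- and 48.1, 60.9 and 28.1 in PDGFRa-SCA1+ cells, and the first 3 fractions overlapped. Aldh1a2 measured 17.2, 16.6 and 30.9 in DCs, 20.2, 8.47 and 40.7 in PDGFRa+SCA1+, 97.7, 4.68 and 37.7 in PDGFRa+SCA1- and 1.69, 0.0609 and 0 in PDGFRa-SCA1+ cells. Its widest spread was within PDGFRa+SCA1- cells, where mouse A, the highest for Aldh1a2, also had the highest sum of 6 mesothelial markers (207 against 40.6 and 57.6 in the other mice). In PDGFRa-SCA1+ cells mouse A was also highest for both, with a sum of 128 against 0.0774 and 0.0222 and an Aldh1a2 value of 1.69. In DCs the highest sum, 123, was in mouse E, the lowest of the DCs for Aldh1a2. In PDGFRa+SCA1+ cells the highest sum, 32.7, was in mouse A, while Aldh1a2 was highest in mouse F. The part of that sum in the Aldh1a2 value was not tested.
Aldh1a3 was a gene of the PDGFRa+ cells. It measured 10.1, 20.8 and 19.3 in PDGFRa+SCA1- and 8.53, 8.12 and 3.24 in PDGFRa+SCA1+ cells, and it was listed at 0 in 4 of the 6 samples of the other fractions. Of the other 2, the DCs of mouse E held a single read and the PDGFRa-SCA1+ cells of mouse F measured 2.94.

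The carriers and the receptor divided differently. Crabp1 was listed at 0 in all 12 samples, where 3 reads would have given a value of 0.515 to 0.598. Crabp2 was low and uneven, at 23.1, 21.6 and 0 in PDGFRa+SCA1-, 0.967, 6.25 and 3.83 in PDGFRa+SCA1+, 8.76, 2.27 and 7.25 in PDGFRa-SCA1+ cells and at most 1.98 in DCs, and it was called in no comparison of the fractions. Rarb measured 217, 157 and 183 in PDGFRa-SCA1+ cells, against 27.3, 27.5 and 28.1 in PDGFRa+SCA1+, 10.2, 58.6 and 29.3 in PDGFRa+SCA1- and 21.1, 16.4 and 11.8 in DCs. Every PDGFRa-SCA1+ sample lay above the 9 others. Top2b, which shares exon bases with Rarb, stayed between 22.2 and 43.8 in all 12 samples.

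The first comparisons ask how the other 3 fractions differ from DCs, and 7 of the 9 genes passed the filter on low values. Between PDGFRa+SCA1+ cells and DCs 3 of these 7 were called at an adjusted p of 0.05, where 23.8% of all 17028 genes tested were. Rdh10 rose by 2.13 (SE 0.46, adjusted p = 0.00495), Aldh1a3 rose by 2.83 (SE 0.65, adjusted p = 0.0067), and Rbp4 fell by 1.74 on the log2 scale (SE 0.40, adjusted p = 0.00658). Aldh1a1, with a difference of 0.78 (95% interval 0.06 to 1.49), was not called.
Between PDGFRa+SCA1- cells and DCs 2 of 7 were called, against 28.8% of all genes. Aldh1a3 rose by 4.07 (SE 0.65, adjusted p = 5.03e-04) and Rbp4 fell by 1.43 (SE 0.40, adjusted p = 0.0174). The Rbp4 call was lost without DC replicate A (−1.40, adjusted p = 0.0574), without DC replicate E (−1.37, adjusted p = 0.0624) or without PDGFRa+SCA1- replicate E (−1.28, adjusted p = 0.0525), and with the scaling of the deposited values corrected to exact TPM (−1.18, adjusted p = 0.059). Rdh10 differed by 1.32 (SE 0.46), with an adjusted p of 0.0514, and was called under 5 alternatives: with the mouse as a block (adjusted p = 0.037), a minimum value of 5 (0.0437), quantile normalization (0.013) or exact TPM (0.0127), and without PDGFRa+SCA1- replicate A, where the difference was 1.86 (0.00412).
PDGFRa-SCA1+ cells and DCs differed in 3 of 7 genes, against 22.8% of all genes. Rarb rose by 3.44 (SE 0.49, adjusted p = 2.69e-04), while Aldh1a1 fell by 2.38 (SE 0.33, adjusted p = 1.95e-04) and Aldh1a2 fell by 3.94 (SE 0.92, adjusted p = 0.00768). Rdh10 differed by −1.31 (SE 0.46, adjusted p = 0.0627) and was called with the mouse as a block (0.0444), quantile normalization (0.0236), exact TPM (0.0482) or a fit on these 6 samples alone (0.0191). Over the genes tested in these 3 comparisons the median difference was 0.78, 0.68 and −0.25 for the 7 genes, and −0.28, −0.47 and −0.04 for all genes.

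Among the fractions other than DCs, calls were made across the PDGFRa gate and not across the SCA1 gate, where few of all genes were called either. None of the 7 was called between PDGFRa+SCA1+ and PDGFRa+SCA1- cells (limma, with 0 at an unadjusted p under 0.05 too), where 0.587% of all genes were (100 genes, and 20 with the mouse as a block). The largest of the 7 differences was −1.25 for Aldh1a3 (95% interval −2.65 to 0.16), for which the samples of the 2 fractions did not overlap, and that of Rdh10 was 0.82 (95% interval −0.19 to 1.83). Those intervals leave room for differences of more than 1 log2 unit.
Between PDGFRa-SCA1+ and PDGFRa+SCA1+ cells 6 of the 7 were called, against 18.8% of all genes. All 4 synthesis genes fell, Rdh10 by 3.44 (SE 0.46, adjusted p = 2.29e-04), Aldh1a1 by 3.16 (SE 0.33, adjusted p = 3.21e-05), Aldh1a2 by 3.84 (SE 0.92, adjusted p = 0.0112) and Aldh1a3 by 2.18 (SE 0.65, adjusted p = 0.0336). Rarb rose by 2.69 (SE 0.49, adjusted p = 0.00217) and Rbp4 rose by 1.49 (SE 0.40, adjusted p = 0.0198). Each of the 6 showed no overlap between its 3 and 3 samples. The calls rest on these same samples, so this adds no support, and the share of all genes without overlap was not computed.
The calls of Rdh10, Aldh1a1 and Rarb held in every alternative tried. That of Aldh1a3 was lost with the mouse as a block (adjusted p = 0.0543), with no filter on low values (0.072) and on only the groups compared (0.0866). It was also lost without mouse A or E of either fraction (differences of −2.01 to −1.85, adjusted p = 0.108 to 0.113). The Rbp4 call was lost without replicate A of either fraction, without PDGFRa-SCA1+ replicate E or without PDGFRa+SCA1+ replicate F (1.03 to 1.47, adjusted p = 0.0545 to 0.0734). Quantile normalization (1.07, adjusted p = 0.115) and a fit on only the groups compared (1.49, adjusted p = 0.0884) lost it too. That of Aldh1a2 was lost without PDGFRa+SCA1+ replicate F (−3.32, adjusted p = 0.0551).

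Other genes of the pathway were taken from a list of 33, of which 26 were tested in the fractions. Against DCs, 5 rose and 4 fell in PDGFRa+SCA1+ cells (34.6% of the 26, where 23.8% of all genes were called). In PDGFRa+SCA1- cells 6 rose and 6 fell (46.2%, against 28.8% of all genes). In PDGFRa-SCA1+ cells 7 rose and 2 fell (34.6%, against 22.8% of all genes). Between PDGFRa-SCA1+ and PDGFRa+SCA1+ cells 6 rose and 4 fell (38.5%, against 18.8% of all genes). None of the 26 was called between the PDGFRa+ fractions, where 0.587% of all genes were.
Retinyl ester storage was represented by Lrat, which was highest in the PDGFRa+ cells. Lrat, which makes retinyl esters, measured 60.9, 108 and 236 in PDGFRa+SCA1+ and 181, 310 and 134 in PDGFRa+SCA1- cells, against at most 0.569 in DCs and 0.0858, 17.9 and 2.36 in PDGFRa-SCA1+ cells. Bco1, which cleaves β-carotene to retinal, measured 138, 219 and 16.4 in PDGFRa+SCA1- cells and was called there against DCs (4.02, adjusted p = 0.00748).
Of the genes that lower retinal and retinoic acid, Cyp26b1 and Dhrs3 were highest in PDGFRa-SCA1+ cells, while Cyp26a1 had its highest sample elsewhere. Cyp26b1 measured 26.1, 109 and 189 there and at most 6.67 elsewhere, and rose by 6.36 over DCs (SE 0.84, adjusted p = 1.36e-04) and by 5.99 over PDGFRa+SCA1+ cells (adjusted p = 2.98e-04). Cyp26a1 measured 10.4, 13.8 and 15.4 there, and the only other sample above 0.0808 was the PDGFRa+SCA1- library of mouse F, at 43.6. Dhrs3 measured 584, 738 and 605 in PDGFRa-SCA1+ cells, 313, 348 and 267 in DCs and 81.1 to 160 in the PDGFRa+ fractions. Rarb and the endothelial sum (1957, 2102 and 1768 in mice A, E and F) were also highest in PDGFRa-SCA1+ cells. The part of that sum in the Rarb and Cyp26b1 values was not tested.

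**Figure D2:**
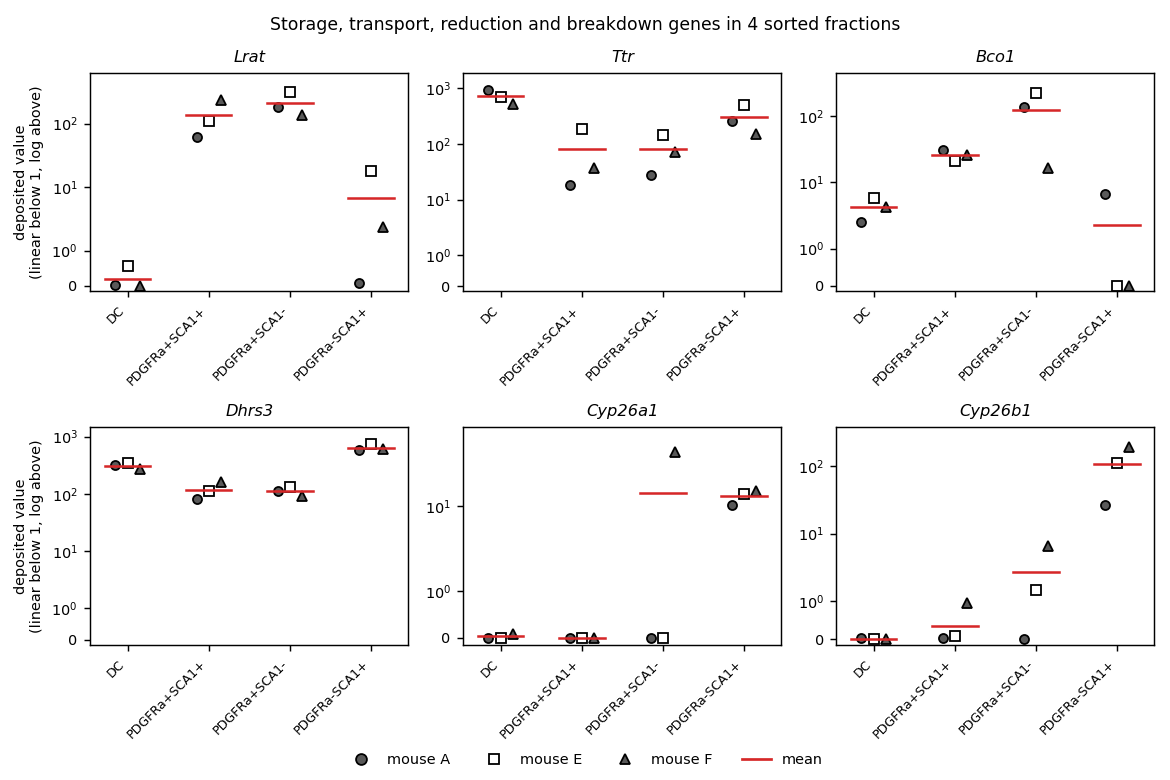
Levels of 6 pathway genes (panels) in the 4 fractions, drawn as deposited values on an axis that is linear below 1 and logarithmic above, with 1 marker per mouse and red lines for means. Lrat is high in the 6 PDGFRa+ samples, and Cyp26b1 and Dhrs3 are highest in the 3 PDGFRa-SCA1+ samples.

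The receptors differed among themselves. Rara lay between 46.2 and 78 in all 12 samples and was called in no comparison of the fractions. Rxra, a partner of the retinoic acid receptors, measured 3.58 to 9.21 in DCs and was called higher in PDGFRa+SCA1- (1.87, adjusted p = 0.0154) and PDGFRa-SCA1+ cells (2.04, adjusted p = 0.0107). Fabp5, which can carry retinoic acid to other nuclear receptors, was highest in DCs, at 87.3 to 130 against 15.4 to 46.3 in PDGFRa-SCA1+ cells and 0.522 to 5.64 in the PDGFRa+ fractions. Ttr, the plasma partner of RBP4, measured 918, 684 and 518 in DCs and 18.2, 186 and 36.5 in PDGFRa+SCA1+ cells, with 251, 486 and 152 in PDGFRa-SCA1+ and 27.6, 146 and 70.9 in PDGFRa+SCA1- cells, and like the hepatocyte sum it was higher in DCs than in either PDGFRa+ fraction.

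**Figure D3:**
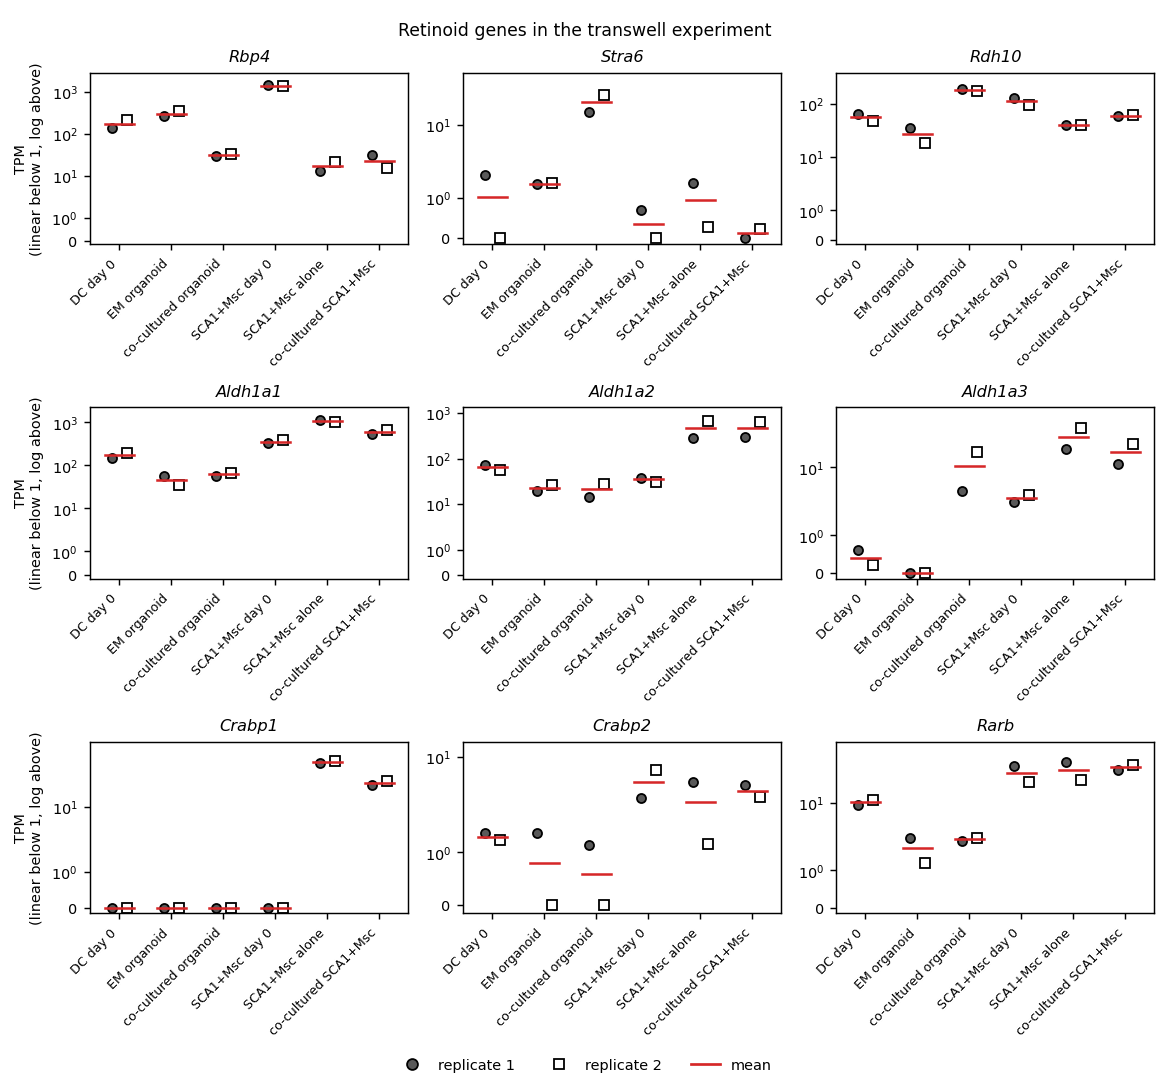
Levels of the 9 retinoid genes (panels) in the 6 transwell groups. The y axis is TPM, linear below 1 and logarithmic above, points are the 2 replicates, and red lines are means. Stra6 is highest in the co-cultured organoids, Aldh1a2 in the cultured SCA1+Msc, and Crabp1 is above 0 only in cultured SCA1+Msc.

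In the transwell experiment all 9 genes were tested, among 18136. SCA1+Msc and DCs at day 0 were compared in other mice and with a gate that left PDGFRa unused. The 5 endothelial markers summed to 177 and 182 TPM in SCA1+Msc and to 27.9 and 25.1 TPM in DCs. The 5 ductal markers summed to 1156 and 2417 TPM in SCA1+Msc and to 49720 and 51709 TPM in DCs. None of these markers was at 0, and the part of these sums in the values below, Rarb included, was not tested. Of the 9, 5 were called and all 5 rose, against 46.1% of all genes. Rbp4 measured 1434 and 1405 TPM in SCA1+Msc and 136 and 213 in DCs and rose by 3.05 (SE 0.33, adjusted p = 5.83e-05). This is the opposite order to the sorted PDGFRa+ cells, and the 7 hepatocyte markers summed to 19694 to 24433 TPM in these SCA1+Msc samples against 4060 to 5125 in the DCs. All 7 were above 0 in both groups, and their part in the Rbp4 value was not tested.
Of the other 4, Aldh1a1 (331 and 384 against 146 and 194) rose by 1.08 (SE 0.23, adjusted p = 0.00385) in every alternative. Rdh10 (127 and 95.4 against 63.4 and 47.9) rose by 0.99, Rarb (35.1 and 20.8 against 9.42 and 11.2) by 1.32 and Aldh1a3 (3.13 and 3.87 against 0.604 and 0.208) by 1.69, with adjusted p-values of 0.0139, 0.0171 and 0.0332. These 3 rested on single libraries. The Rdh10 call was lost without DC day 0 replicate 2 or SCA1+Msc day 0 replicate 1 (0.78 to 0.79, adjusted p = 0.0969 to 0.111), that of Rarb without either DC day 0 replicate or SCA1+Msc day 0 replicate 1 (0.95 to 1.43, adjusted p = 0.0563 to 0.116), and that of Aldh1a3 without any one of the 4 samples (1.48 to 1.89, adjusted p = 0.0823 to 0.161) and on deposited RPKM (0.95, adjusted p = 0.107). Aldh1a2 measured 38.5 and 31.2 in SCA1+Msc and 73.5 and 55.6 in DCs and was not called (−0.86, 95% interval −1.92 to 0.19).

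In EM organoids Rdh10, Aldh1a1, Aldh1a2 and Rarb were lower than in DCs at day 0. These were the 4 of the 9 called, a share equal to the 44.4% of all genes called, and Aldh1a3 was not (−0.48, 95% interval −1.74 to 0.79), except with a pseudocount of 0.1 (−2.22, adjusted p = 0.037). Rdh10 measured 35.1 and 18.4 after culture and fell by 1.09 (SE 0.27, adjusted p = 0.00922), Aldh1a1 measured 55.9 and 34.3 and fell by 1.92 (SE 0.23, adjusted p = 1.35e-04), and Aldh1a2 measured 19.0 and 27.0 and fell by 1.46 (SE 0.47, adjusted p = 0.0296). Rarb measured 3.0 and 1.29 and fell by 1.89 (SE 0.38, adjusted p = 0.00272). The samples of these 4 genes did not overlap between the groups. The calls rest on the same samples, so this adds no support, and the share of all genes without overlap was not computed. Rbp4, at 265 and 343, was not called (0.82, 95% interval 0.08 to 1.56, although on deposited RPKM the adjusted p was 0.0361), while the hepatocyte sum was 607 to 750 TPM against 4060 to 5125 at day 0. The Aldh1a2 call was lost without any one of the 4 samples (−1.70 to −1.22, adjusted p = 0.06 to 0.166) and that of Rdh10 without DC day 0 replicate 1 or EM organoid replicate 2 (−0.89 and −0.64, adjusted p = 0.0815 and 0.0601).

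In co-cultured organoids 7 of the 9 differed from DCs at day 0, against 42.3% of all genes. Stra6 measured 14.9 and 26.0 TPM against 2.05 and 0 and rose by 3.57 (SE 0.57, adjusted p = 8.42e-04), Rdh10 measured 193 and 173 and rose by 1.71 (SE 0.27, adjusted p = 7.71e-04), and Aldh1a3 measured 4.48 and 16.5 and rose by 2.82 (SE 0.56, adjusted p = 0.00296). Rbp4 measured 29.3 and 32.0 and fell by 2.44 (SE 0.33, adjusted p = 2.93e-04). Other genes of uptake and oxidation went the opposite way, since Stra6l, a second receptor for RBP4, fell by 3.60 (adjusted p = 3.34e-05) and Adh1, a retinol dehydrogenase, fell by 6.01 (adjusted p = 1.13e-06).
Aldh1a1, at 55.3 and 67.7, fell by 1.45 (SE 0.23, adjusted p = 8.17e-04), Aldh1a2, at 14.4 and 27.8, fell by 1.62 (SE 0.47, adjusted p = 0.0191), and Rarb, at 2.76 and 3.06, fell by 1.53 (SE 0.38, adjusted p = 0.00921). The 3 ALDH1A genes thus moved in unlike directions within the same organoids. The Aldh1a2 call was lost without either DC day 0 replicate or co-cultured organoid replicate 1 (−1.82 to −1.17, adjusted p = 0.061 to 0.157), and that of Rarb without DC day 0 replicate 2 or co-cultured organoid replicate 1 (−1.42 and −1.47, adjusted p = 0.0641 and 0.0554). Top2b measured 15.4 and 15.2 in DCs at day 0 and 28.4 to 41.7 in both kinds of organoid, opposite in order to Rarb.

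Set directly against EM organoids, co-cultured organoids differed in 4 of the 9, against 12.9% of all genes. Rdh10 rose by 2.80 (SE 0.27, adjusted p = 2.02e-04) and Rbp4 fell by 3.26 (SE 0.33, adjusted p = 2.60e-04). Stra6, at 1.54 and 1.58 in EM organoids, rose by 3.02 (SE 0.57, adjusted p = 0.00799), and Aldh1a3, listed at 0 in both EM organoids, rose by 3.29 (SE 0.56, adjusted p = 0.00456). Taking 3 reads per library as the floor, mean Aldh1a3 was at least 103-fold higher in the co-cultured organoids, and at least 44.0-fold in replicate 1, the lower of the pair. The hepatocyte sum was 51.1 to 90.6 TPM in the co-cultured against 607 to 750 TPM in the EM organoids, with Cyp3a11 at 0 in both, and its part in the Rbp4 difference was not tested. The 6 mesothelial markers summed to 3879 and 4502 TPM in co-cultured against 297 and 326 TPM in EM organoids, almost all of it Msln, with Lrrn4, Upk1b and Muc16 at 0 in both groups. The 6 hepatic stellate markers summed to 667 and 802 TPM against 140 and 144 TPM, mostly Ecm1, with Colec11 at 0 and Lrat at or near 0 in both. The part of these sums in the differences of Stra6, Rdh10 and Aldh1a3 was not tested.
Aldh1a1 (0.47, 95% interval −0.05 to 0.99), Aldh1a2 (−0.17, 95% interval −1.22 to 0.88) and Rarb (0.37, 95% interval −0.48 to 1.22) were not called, and their samples overlapped. The Stra6 call was lost without either EM organoid replicate or co-cultured organoid replicate 2 (2.63 to 3.03, adjusted p = 0.053 to 0.0692) and with a pseudocount of 0.1. Fitted on these 4 samples alone, only Rbp4 remained called, with adjusted p-values of 0.0615 for Stra6, 0.07 for Rdh10 and 0.123 for Aldh1a3.

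The other pathway genes were set against the same pair of cultures. Of the 30 listed pathway genes tested, 6 were called between co-cultured and EM organoids, where 12.9% of all genes were. Of these 6, 3 rose and 3 fell. The 3 that rose, Rbp2, Rbp7 and Fabp5, encode small binding proteins, while Crabp1 was listed at 0 in both groups and Crabp2 was not called. Rbp2, a retinol carrier best known from the gut, measured 76.1 and 79.8 against 0.437 and 0 (6.04, adjusted p = 1.28e-04). Rbp7 measured 20.7 and 18.8 against 4.49 and 0 (3.15, adjusted p = 0.00975) and Fabp5 284 and 261 against 106 and 86.3 (1.50, adjusted p = 0.00412). Stra6l, Dhrs4 and Adh1 fell by 1.29, 0.64 and 1.18, with adjusted p-values of 0.0372, 0.0465 and 0.0398. Against DCs at day 0, 6 rose and 7 fell in EM organoids (43.3%, near the 44.4% of all genes). In co-cultured organoids 8 rose and 5 fell (43.3%, near the 42.3% of all genes). Lrat and the 3 Cyp26 genes were at or near 0 in both kinds of organoid, at no more than 0.0293 TPM.

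In cultured SCA1+Msc the 3 ALDH1A genes rose and Rdh10 fell. Alone for 15 days, 6 of the 9 differed from day 0, against 44.8% of all genes, and these 6 were called in every alternative. Aldh1a1 measured 1122 and 999 TPM and rose by 1.57 (SE 0.23, adjusted p = 4.88e-04), Aldh1a2 measured 289 and 673 and rose by 3.63 (SE 0.47, adjusted p = 2.14e-04), and Aldh1a3 measured 18.3 and 38.0 and rose by 2.61 (SE 0.56, adjusted p = 0.00423). All 3 ALDH1A genes were above every day 0 sample. Their calls rest on the same samples, so this adds no support, and the share of all genes so placed was not computed. In the same samples the sum of 4 smooth muscle markers went from 567 and 778 TPM at day 0 to 3424 and 3123 TPM alone, mostly Acta2, and that of 5 mesenchymal markers from 20795 and 19952 TPM to 33025 and 30638 TPM. None of these markers was at 0, and the part of the sums in the ALDH1A values was not tested.
Crabp1, which binds retinoic acid in the cytoplasm, was listed at 0 in both day 0 samples and measured 46.8 and 49.3 TPM (288 and 291 reads) after culture, at least 76.9-fold higher in the mean against a floor of 3 reads per library (adjusted p = 5.20e-07 in the fit). Rdh10, at 40.8 and 40.0, fell by 1.43 (SE 0.27, adjusted p = 0.00215). Rbp4, at 13.3 and 21.4 against 1434 and 1405, fell by 6.31 (SE 0.33, adjusted p = 9.92e-07), while the hepatocyte sum went from 19694 to 24433 TPM at day 0 to 40.9 to 52.3 TPM.

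Co-cultured SCA1+Msc differed from day 0 in the same 6 genes, against 43.3% of all genes. Aldh1a2 measured 304 and 636 and rose by 3.63 (SE 0.47, adjusted p = 2.22e-04). Crabp1 measured 21.3 and 24.7 (108 and 143 reads), at least 36.8-fold higher than at day 0 on the same floor (adjusted p = 1.75e-06), and Rbp4 measured 30.4 and 15.4 and fell by 5.97 (SE 0.33, adjusted p = 1.37e-06). The hepatocyte sum of these samples was 418 and 26.1 TPM. The 3 calls of Aldh1a2, Crabp1 and Rbp4 held under every alternative.
Aldh1a3, at 11.2 and 21.8, rose by 1.90 (SE 0.56, adjusted p = 0.0214), Aldh1a1, at 525 and 656, rose by 0.72 (SE 0.23, adjusted p = 0.0313), and Rdh10, at 58.2 and 61.9, fell by 0.87 (SE 0.27, adjusted p = 0.0274). Each of these was lost without one of several libraries: Aldh1a3 and Aldh1a1 without either SCA1+Msc day 0 replicate or co-cultured SCA1+Msc replicate 2 (1.45 to 2.01 and 0.56 to 0.82, adjusted p = 0.0635 to 0.18), and Rdh10 without SCA1+Msc day 0 replicate 1 or either co-cultured SCA1+Msc replicate (−0.91 to −0.66, adjusted p = 0.0831 to 0.157).
Rarb was not called in either culture, at 40.8 and 21.7 alone and 31.4 and 36.4 in co-culture, with differences of 0.13 (95% interval −0.72 to 0.98) and 0.31 (95% interval −0.54 to 1.16). Stra6 was at most 1.61 TPM in the SCA1+Msc groups, and Crabp2 measured between 1.23 and 7.19 TPM in them and was called in no transwell comparison.

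Between co-cultured and lone SCA1+Msc none of the 9 was called, where 0.127% of all genes were (limma), although 2 had an unadjusted p under 0.05. These 2 were Crabp1, at 21.3 and 24.7 against 46.8 and 49.3 (−1.04, 95% interval −1.63 to −0.44, adjusted p = 0.3), and Aldh1a1, at 525 and 656 against 1122 and 999 (−0.85, 95% interval −1.37 to −0.33, adjusted p = 0.362). In both, the co-cultured samples lay below the lone samples, and the share of all genes so placed was not computed. Aldh1a2 differed by 0.00 (95% interval −1.05 to 1.05).
Of the 30 pathway genes, 6 rose and 9 fell in lone SCA1+Msc against day 0 (50.0%, against 44.8% of all genes). In co-cultured SCA1+Msc 4 rose and 9 fell, a share of 43.3% that equals the 43.3% of all genes. None was called between the cultures, where 0.127% of all genes were. Lrat fell, from 51.7 and 39.9 TPM at day 0 to 24.5 and 21.9 alone (−0.94, adjusted p = 0.021) and 15.0 and 17.9 in co-culture (−1.42, adjusted p = 0.0027). The 6 hepatic stellate markers, Lrat among them, summed to 3926 and 3097 TPM at day 0, to 1373 and 1431 TPM alone and to 1201 and 1188 TPM in co-culture, with none at 0, and the part of that sum in the Lrat values was not tested. Dhrs3 rose from 113 and 96.0 to 381 and 261 alone. Of the same 30 genes 15 rose and 5 fell between SCA1+Msc and DCs at day 0 (66.7%, against 46.1% of all genes). Lrat, Bco1 and Rarres2, which encodes chemerin, were among those that rose.

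**Figure D4:**
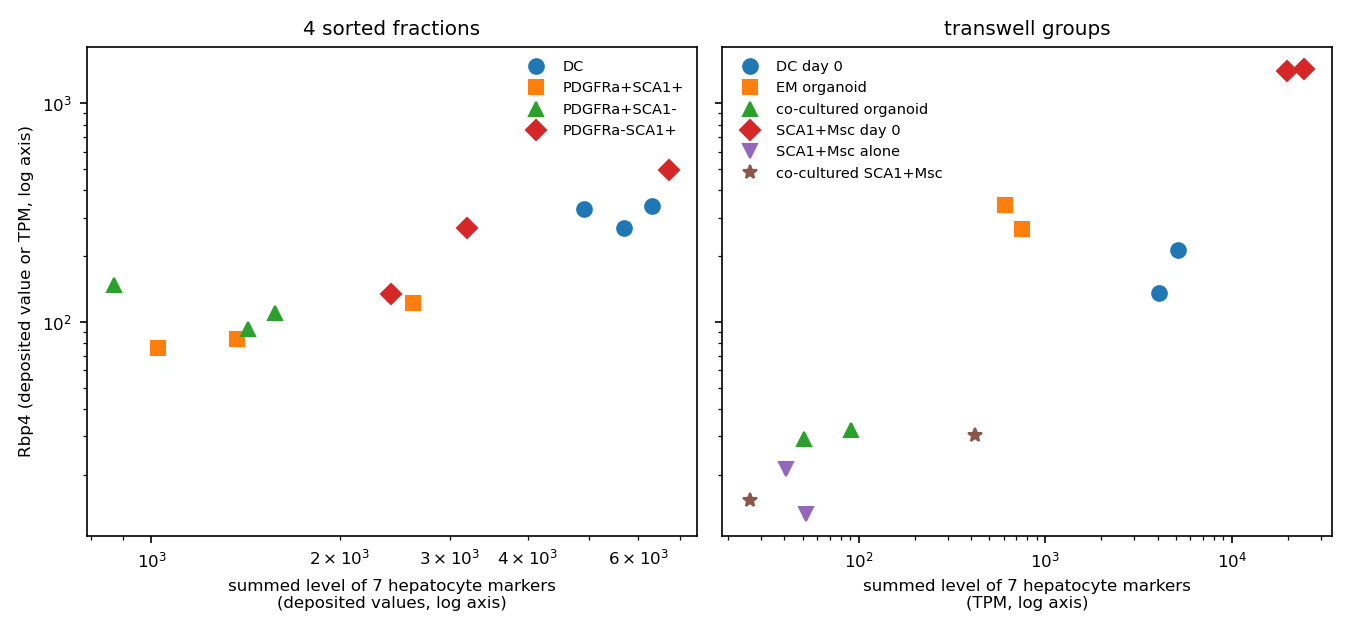
Rbp4 (y axis) against the summed level of 7 hepatocyte markers (x axis) in each sample, with deposited values of the 4 fractions on the left and TPM of the 6 transwell groups on the right, on logarithmic axes with 1 marker shape per group. SCA1+Msc at day 0 are highest on both axes, and the EM organoids are above DCs at day 0 for Rbp4 but below them for the markers.

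Whether culture changed the 2 cell types unequally was tested as a difference of differences, co-cultured minus day 0 in SCA1+Msc against the same in DCs. The mesenchyme had been expanded on the plate before the DCs were added in Matrigel. Time and support in culture thus differed with cell type and cannot be told apart from it. Of the 9, 7 were called, against 28.3% of all genes. Aldh1a2 (5.25, SE 0.66, adjusted p = 4.72e-04), Crabp1 (4.58, SE 0.37, adjusted p = 4.16e-05), Aldh1a1 (2.16, SE 0.33, adjusted p = 0.0013) and Rarb (1.84, SE 0.53, adjusted p = 0.0298) moved further up, or less far down, in SCA1+Msc. Stra6 (−3.80, SE 0.81, adjusted p = 0.00762), Rbp4 (−3.53, SE 0.47, adjusted p = 6.16e-04) and Rdh10 (−2.58, SE 0.38, adjusted p = 0.00119) moved the other way. Aldh1a3, which rose in both, was not called (−0.92, 95% interval −2.71 to 0.87).
The Rarb call was lost without 7 of the 8 samples in turn, each but SCA1+Msc day 0 replicate 1 (1.48 to 1.95, adjusted p = 0.063 to 0.0961). That of Stra6 was lost with a pseudocount of 0.1 (adjusted p = 0.0758).

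**Figure D5:**
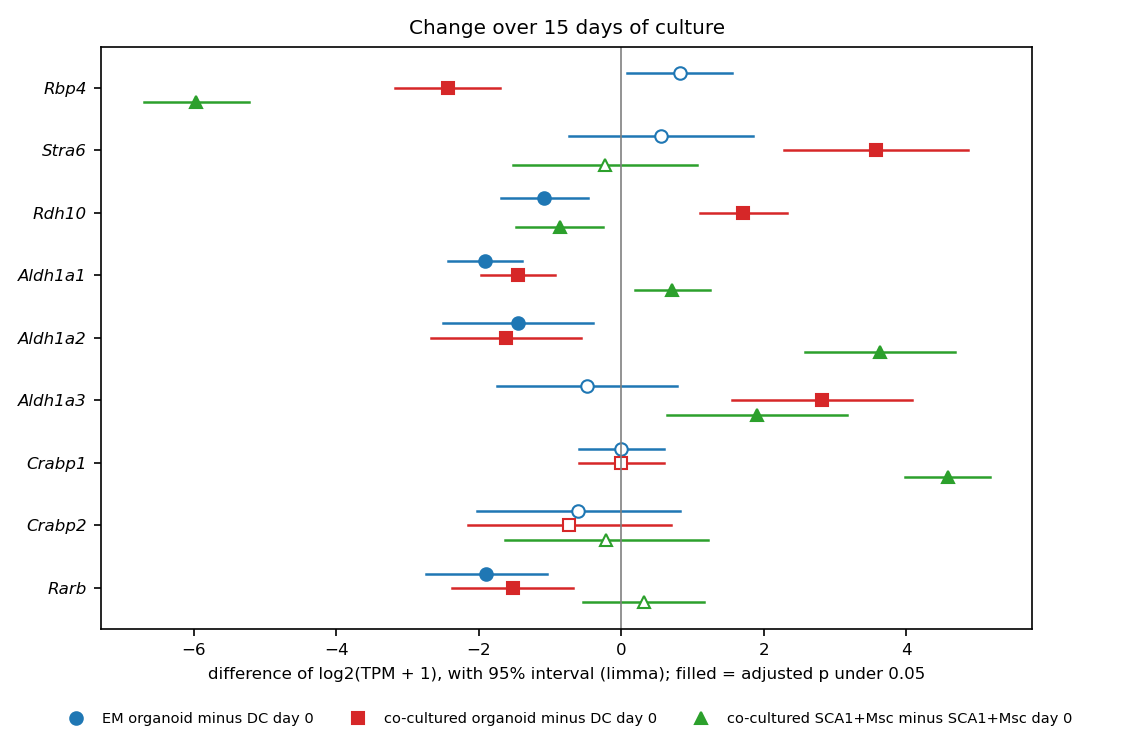
Differences of log2(TPM + 1) from the day 0 cells of the same type (x axis) for the 9 genes (y axis), with 95% intervals from limma and filled symbols for adjusted p-values under 0.05. Aldh1a1 and Aldh1a2 fell in both kinds of organoid and rose in co-cultured SCA1+Msc, and Stra6 and Rdh10 were called higher only in the co-cultured organoids.

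Genes whose pattern was most like a member were found by Pearson's r over the 12 samples of an experiment, for the 3 members with the widest range of group means. In the fractions Aldh1a3 was most like Tmem26, Tagln and Pcdh18 (r = 0.991, 0.982 and 0.969), Rdh10 most like Casc4, Usp53 and Cdk14 (0.97, 0.965 and 0.962) and Aldh1a2 most like Wnt5b, Clcn2 and Cdk5rap2 (0.926, 0.919 and 0.917). In the transwell experiment Crabp1 was most like Speer4a, Tcp11x2 and Rnase10 (0.996, 0.996 and 0.995), Rbp4 most like Amdhd1, Peli1 and Cdo1 (0.979, 0.974 and 0.968) and Aldh1a3 most like Mecom, Abhd11os and Clec2d (0.961, 0.951 and 0.939). The 12 points fall into 4 or 6 groups and share libraries, so these values describe shared group differences.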

How the data were processed

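RNA was measured by Smart-seq2 in 24 mouse samples: 12 of the homeostasis experiment (4 fractions from each of 3 mice) and 12 of the transwell experiment (6 groups of 2). Before deposit, the authors aligned single-end reads with STAR (2.5.0a) to GRCm38, removed low-quality alignments with Samtools and counted reads on exons with featureCounts (1.6.0, from the submitters' processing notes). The transwell table was deposited by the authors as RPKM, made from those counts and gene lengths, and each sample was divided here by its sum to give TPM. The homeostasis values were deposited under the name TPM, but the totals used to scale the RPKM were reused in turn down the table, so columns sum to 847270 to 1173511 and a value departs from TPM by a factor of 0.7216 to 1.386; they were used as deposited, with the reuse undone as an alternative. The 4 columns of fraction means were not used, and 26 symbols of the transwell table had been turned into dates.

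Depth was read from the steps between low values: 92.89% of 47022 values (homeostasis) and 93.05% of 50178 values (transwell) of up to 20 reads were whole reads within 0.02. The 95% intervals come from limma and rest on the spread between samples, while floors of 3 reads cover counting error only. limma 3.58.1 (R 4.3.3) was fitted to log2(value + 1), as group means estimated jointly from the 12 samples of each experiment, eBayes with trend, two-sided tests and Benjamini-Hochberg adjustment over every gene that reached 1 in 3 (homeostasis) or 2 (transwell) samples or more. A gene was called at an adjusted p under 0.05, and group overlap, ranges and sums were computed with Python 3.11.15. The fit was tested on simulated data. Positions and exon overlaps were taken from the GENCODE annotation of GRCm38.

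All 9 genes were named, and 33 other pathway genes and marker lists of 9 cell types were counted and named where they passed the test or held a role of their own; 1 further listed gene is not reported here. The members and lists were chosen with earlier results of these data known. Same-numbered homeostasis samples came from the same mouse, and their deviations from the group means correlated weakly (means of 0.0187 to 0.0624 over pairs of fractions), so the mouse was tried as a block. Alternatives were a pseudocount of 0.1, no filter or a minimum of 5, quantile normalization, eBayes without trend, only the groups compared, a replicate block, RPKM or corrected TPM, and leaving out each replicate.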

Additional observations from a re-analysis of the deposited data

Results flagged for a closer look

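The change from day 0 to co-culture differed between SCA1+Msc and DCs for 7 of the 9 genes by the interaction test in limma. Time and support in culture also differed between these cell types and cannot be told apart from cell type. The difference of differences, SCA1+Msc minus DC on the log2(TPM + 1) scale, was 5.253 for Aldh1a2, 4.58 for Crabp1, 2.164 for Aldh1a1 and 1.839 for Rarb. It was −3.796 for Stra6, −3.528 for Rbp4 and −2.576 for Rdh10. Over all genes tested the median of this difference was 0.14, and 28.3% of them were called. The hepatocyte marker sum was 19694 to 24433 TPM in SCA1+Msc at day 0 and 26.1 to 418 TPM after co-culture, and 4060 to 5125 TPM in DCs and 51.1 to 90.6 TPM in co-cultured organoids, and its part in the Rbp4 difference was not tested.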

How the results depend on the processing

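Of 53 calls on the 9 genes, 33 were made under every alternative, and over 692 alternative values 615 kept the call, 77 lost it and 0 changed direction. Fits on only the groups compared lost 13 of the 53, leaving one replicate out lost 51 of 268, no filter on low values lost 6, and a minimum of 5 lost 0. Fitted on only the groups compared, 3 rather than 5 of the 9 genes were called between SCA1+Msc and DCs at day 0, 1 rather than 4 between co-cultured and EM organoids, and 3 rather than 6 between co-cultured SCA1+Msc and day 0, where such fits hold fewer samples. With one replicate left out, the counts ran from 1 to 4 (2 in the full fit) between PDGFRa+SCA1- cells and DCs, from 2 to 4 (5) between SCA1+Msc and DCs at day 0, from 2 to 3 (4) between EM organoids and DCs, and from 3 to 5 (6) between co-cultured SCA1+Msc and day 0, and a lone remaining sample of a group was assumed to vary like the other groups. Rbp4 differed by −0.25 between PDGFRa-SCA1+ cells and DCs and was not called, and it ranged from −0.711 to 0.229 with one replicate left out, reversing without PDGFRa-SCA1+ replicate F (adjusted p = 0.694 by limma); the cause was not tested. With the replicate block 5 rather than 6 genes were called between PDGFRa-SCA1+ and PDGFRa+SCA1+ cells, 3 rather than 2 between PDGFRa+SCA1- cells and DCs and 4 rather than 3 between PDGFRa-SCA1+ cells and DCs, and in the transwell experiment, where deviations of samples with the same number correlated at −0.0188 to 0.0295, the block left the count of each comparison as it was. Over all genes, calls between the PDGFRa+ fractions numbered 100, and 54 with quantile normalization, 0 on those fractions alone, 20 with the replicate block and 31 to 394 with one replicate left out. Calls between co-cultured and lone SCA1+Msc numbered 23, and 0 to 51 under the alternatives. Fits on only the groups compared called 6662 rather than 4054 genes between PDGFRa+SCA1+ cells and DCs, 5299 rather than 8363 between SCA1+Msc and DCs at day 0, 997 rather than 2348 between the organoids, and 4299 rather than 8127 (lone) and 4035 rather than 7858 (co-cultured) for SCA1+Msc against day 0. Leaving one replicate out gave 1231 to 1462 calls between the organoids. The median of all genes was −0.47 between PDGFRa+SCA1- cells and DCs and −0.14 after quantile normalization, which moved the share of calls that were higher from 34.6% to 46.1%, and between PDGFRa-SCA1+ and PDGFRa+SCA1+ cells it went from 0.25 to 0.04, with 58.1% and 45.7% higher. Depth limits Crabp1 and Stra6 in the fractions, where values near 0 rest on few reads, and 2 replicates per group limit the transwell tests.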
